A study of Mus musculus with 3 samples.

Results

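The 8 genes described here are Bglap and Bglap2, which both encode osteocalcin, and 6 genes of osteoblast commitment and mineralisation, Runx2, Sp7, Alpl, Pth1r, Smpd3 and Ifitm5. They were taken by symbol from the gene tables of 3 droplet single-cell RNA libraries of mouse bone marrow niche cells, and each symbol matched 1 of the 27998 genes. Each library stands for 1 group. The aGVHD group was female CB6F1 mice irradiated with 2 doses of 4 Gy, given 5000000 nucleated marrow cells of B6.SJL (CD45.1+) donors 4 hours later, and given 60000000 spleen cells of female C57BL/6 donors in addition. The BMT group had the same irradiation and marrow transfer without spleen cells, and the WT group was untreated female CB6F1 mice. In all groups, marrow cells stained for CD45, a lineage mix or CD71 were sorted away, with Calcein AM and DAPI to keep live cells. The sources used here do not give the number of mice, the days after transplantation or the sequencing chemistry.

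Osteoblasts, the cells that lay down bone, arise from skeletal stem and stromal cells. Runx2, a Runt-family transcription factor, is required for their formation in mice, and Sp7 (osterix), a zinc-finger factor, acts downstream of it. Alpl, tissue-nonspecific alkaline phosphatase, removes the mineralisation inhibitor pyrophosphate, Smpd3 is neutral sphingomyelinase and is needed for normal bone mineral in mice, and Pth1r is the receptor of parathyroid hormone and of parathyroid hormone-related protein. Ifitm5 encodes a small membrane protein found mostly in osteoblasts. Osteocalcin is a vitamin K-dependent protein of mature osteoblasts that binds bone mineral and is also found in the circulation.

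On the mm10 (GRCm38) build with the GENCODE vM21 annotation, all 8 are protein-coding genes on the minus strand. Bglap (ENSMUSG00000074483) lies at chr3:88383501-88384464 and Bglap2 (ENSMUSG00000074486) at chr3:88377736-88378699, with 4801 bases between them. Runx2 (ENSMUSG00000039153) lies at chr17:44495987-44814797, Sp7 (ENSMUSG00000060284) at chr15:102356606-102367182, and Alpl (ENSMUSG00000028766) at chr4:137741733-137796384. Pth1r (ENSMUSG00000032492) lies at chr9:110722085-110747145, Smpd3 (ENSMUSG00000031906) at chr8:106252548-106337988, and Ifitm5 (ENSMUSG00000025489) at chr7:140948958-140950291.

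The osteocalcin pair is shown because its reads are hard to tell apart. The coding sequences of the GENCODE vM21 transcripts are 288 bases each and differ at 4 positions, in capitals below, which is 98.6% identity.
Bglap: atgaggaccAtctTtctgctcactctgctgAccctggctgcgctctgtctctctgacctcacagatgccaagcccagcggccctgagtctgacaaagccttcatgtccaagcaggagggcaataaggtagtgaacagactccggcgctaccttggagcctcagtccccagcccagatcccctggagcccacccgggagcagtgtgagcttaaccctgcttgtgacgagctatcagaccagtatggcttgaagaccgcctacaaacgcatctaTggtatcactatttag
Bglap2: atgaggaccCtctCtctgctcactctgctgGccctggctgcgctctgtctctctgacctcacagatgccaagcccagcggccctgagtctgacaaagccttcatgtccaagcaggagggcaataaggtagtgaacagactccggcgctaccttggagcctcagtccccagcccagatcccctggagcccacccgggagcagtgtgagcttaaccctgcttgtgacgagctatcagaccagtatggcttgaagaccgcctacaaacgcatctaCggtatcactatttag
After the stop codon, the 134 transcript bases of Bglap and of Bglap2 are identical. A read that covers none of the 4 coding differences, and no difference upstream of the start codon, cannot be assigned to either gene by its sequence. The split of osteocalcin between the pair is therefore uncertain, and their sum is given where it matters. Bglap3, the third gene of the cluster, differs from Bglap at 13 coding positions and from Bglap2 at 9.

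Promoter sequences from RefSeq (GRCm38.p6) were used for Bglap, Runx2, Alpl, Pth1r and Ifitm5, with 8 entries in all because Alpl and Pth1r have several. The core letters bound by Runt-family factors, ACCACA or TGTGGT on the other strand, occurred in the 250 bases before the start site in 2 of the 8 entries, those of Bglap and Runx2. Over all RefSeq promoters, 4614 of 32851 (14.0%) held these letters in the same window, and a match is a description of the sequence. The Bglap window, chr3:88384467-88384716 on the minus strand, is printed because the Bglap transcript showed the widest range of levels between the libraries, and its match begins 132 bases before the start (capitals).
Bglap promoter: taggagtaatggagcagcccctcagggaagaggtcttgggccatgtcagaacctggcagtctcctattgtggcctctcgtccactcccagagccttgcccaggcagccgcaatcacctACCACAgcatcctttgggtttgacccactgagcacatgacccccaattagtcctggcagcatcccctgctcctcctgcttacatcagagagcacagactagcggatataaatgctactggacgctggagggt

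The files hold raw counts of unique molecular identifiers (UMIs, 1 per captured RNA molecule) for every barcode, so empty droplets were available as well as cells. The libraries totalled 67439098 UMIs in aGVHD, 44219063 in BMT and 86575425 in WT. Barcodes of 1000 UMIs and 500 genes or more, with less than 10% of UMIs mitochondrial, were called cells, which gave 5568 in aGVHD, 3621 in BMT and 7129 in WT, with median depths of 6977.5 UMIs in aGVHD, 6932 in BMT and 7355 in WT. Pairs of libraries shared 8 to 11 cell barcodes. With 1 library per group no test between groups was possible. All intervals below are 95% intervals for counting error only, and levels are CPM, a gene's UMIs per 1000000 UMIs of the barcodes summed.

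Many osteocalcin UMIs of the aGVHD library lay outside its cells, on barcodes that were cells in the BMT library. For Bglap this was 774 of 1100 UMIs (70.4%) and for Bglap2 345 of 775 (44.5%), while aGVHD cells held 19.5% of its Bglap UMIs and 43.2% of its Bglap2 UMIs. In BMT, 89 barcodes outside the aGVHD cells were cells with at least 1% osteocalcin (Bglap plus Bglap2) among their UMIs. Read in aGVHD, those 89 barcodes held 762 of the 1100 Bglap UMIs (69.3%) and 332 of the 775 Bglap2 UMIs (42.8%), although they held 0.0149% of all aGVHD UMIs. Of the 89, 82 carried at least 1 osteocalcin UMI in aGVHD, with a median of 4 and a highest value of 60. The osteocalcin UMIs of these barcodes in the 2 libraries had a Pearson r of 0.98, given as a description. They summed to 1094 in aGVHD and 448768 in BMT, a share of 0.244%, and for all genes the same share was 0.302%. The 69 matching barcodes that were osteocalcin-rich cells in WT held 0 osteocalcin UMIs in aGVHD. Those 69 held only 197 aGVHD UMIs of all genes (median 1), against 10028 (median 111) on the 89 BMT-cell barcodes. The cause of this overlap was not tested, so the levels over all barcodes and in empty droplets are also given without barcodes that were cells of another library.

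**Figure D1:**
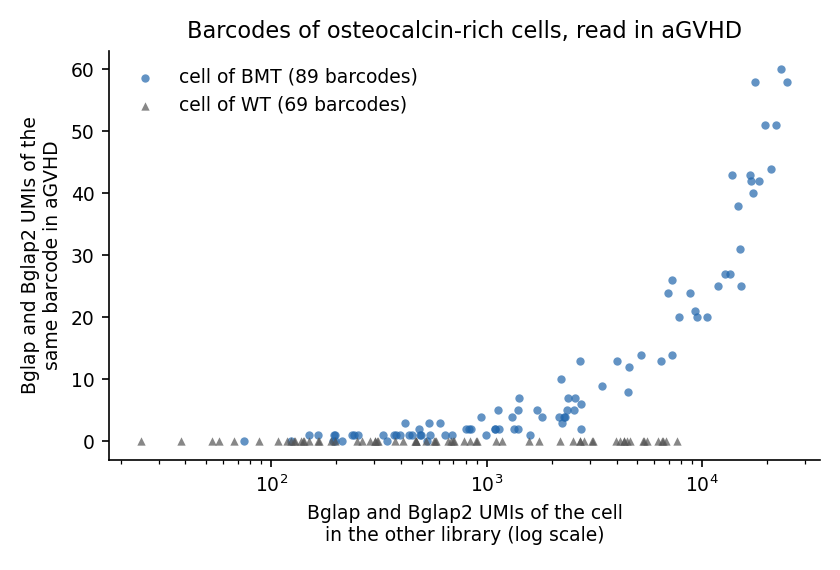
Osteocalcin UMIs of barcodes read in the aGVHD library (vertical axis, UMIs) against the osteocalcin UMIs of the cell with the same barcode in BMT (circles, 89 barcodes) or WT (triangles, 69 barcodes; horizontal axis, UMIs, log scale). The aGVHD counts climb to 60 along the BMT cells and stay at 0 for every WT cell. The WT-cell barcodes held 197 aGVHD UMIs of all genes, against 10028 on the BMT-cell barcodes.

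Over all barcodes, each of the 8 genes was lower in aGVHD than in BMT, and osteocalcin had by far the widest gap. Bglap had 1100 UMIs (16.3 CPM) in aGVHD, against 327782 (7413 CPM) in BMT and 288850 (3336 CPM) in WT. Bglap2 had 775 UMIs (11.5 CPM) in aGVHD, against 147884 (3344 CPM) in BMT and 146335 (1690 CPM) in WT. These osteocalcin levels lay under 20 CPM in aGVHD and above 1000 CPM in the other libraries. Relative to BMT, Bglap was 454-fold lower in aGVHD (428 to 483) and Bglap2 was 291-fold lower (271 to 313). Without barcodes that were cells of another library the gap was wider, 1536-fold for Bglap (4.86 CPM in aGVHD against 7460 CPM in BMT) and 525-fold for Bglap2. For the other 6 genes, leaving out these barcodes gave gaps of 3.19-fold for Runx2, 31.7-fold for Sp7, 24.1-fold for Alpl, 9.19-fold for Pth1r, 30.1-fold for Ifitm5 and 7.13-fold for Smpd3. In called cells alone, Bglap was 2058-fold lower in aGVHD. In a sum over barcodes, fewer cells of a type and less RNA per cell cannot be told apart.

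The early regulators Runx2 and Sp7 differed less than osteocalcin, and Runx2 far less than Sp7. Runx2 had 1403 UMIs (20.8 CPM) in aGVHD, against 2929 (66.2 CPM) in BMT and 4472 (51.7 CPM) in WT, and was 3.18-fold lower in aGVHD than in BMT (2.99 to 3.40). Sp7 had 29 UMIs (0.430 CPM) in aGVHD, against 565 (12.8 CPM) in BMT and 1239 (14.3 CPM) in WT, and was 29.7-fold lower (20.5 to 44.8). Among the 8 genes, Runx2 had the smallest difference, and only the osteocalcin genes had a wider gap than Sp7 over all barcodes. The order of Sp7 and Ifitm5 was not resolved, since the Ifitm5 interval (23.1 to 31.9) lay within that of Sp7. In called cells alone Ifitm5 was 31.9-fold lower and Sp7 30.5-fold lower.

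Of the surface and mineral genes, Alpl had 308 UMIs (4.57 CPM) in aGVHD, against 4608 (104 CPM) in BMT and 14902 (172 CPM) in WT, and was 22.8-fold lower in aGVHD than in BMT (20.3 to 25.7). Pth1r had 646 UMIs (9.58 CPM) in aGVHD, against 3805 (86.0 CPM) in BMT and 11709 (135 CPM) in WT, and was 8.98-fold lower (8.26 to 9.78). These receptor and phosphatase genes were lowest in aGVHD and highest in WT. Smpd3 had 837 UMIs (12.4 CPM) in aGVHD, against 3907 (88.4 CPM) in BMT and 9442 (109 CPM) in WT, and was 7.12-fold lower (6.61 to 7.68). Ifitm5 had 162 UMIs (2.40 CPM) in aGVHD, against 2874 (65.0 CPM) in BMT and 3275 (37.8 CPM) in WT, and was 27.1-fold lower (23.1 to 31.9).

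A 2-fold boundary, with at least 50 UMIs over both libraries and an interval excluding 1, was used to count genes. In aGVHD over BMT, 8 of 8 members were lower, against 26.7% of all measured genes lower and 5.40% higher. The members' median log2 ratio was −4.63, against −0.48 over all measured genes. In BMT over WT, 1 of 8 was higher, Bglap at 2.22-fold (2.21 to 2.23), and none was lower, against 12.9% of all measured genes higher and 6.37% lower. Bglap2 stood at 1.98-fold (1.96 to 1.99), just inside the boundary. Alpl was 1.65-fold lower in BMT than in WT (1.60 to 1.71) and Pth1r 1.57-fold lower (1.52 to 1.63), both inside the boundary. The Bglap call in BMT over WT rests on scaling: centred on the median of all genes its ratio was 1.97, and in called cells alone both Bglap (2.33) and Bglap2 (2.07) passed.

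**Figure D2:**
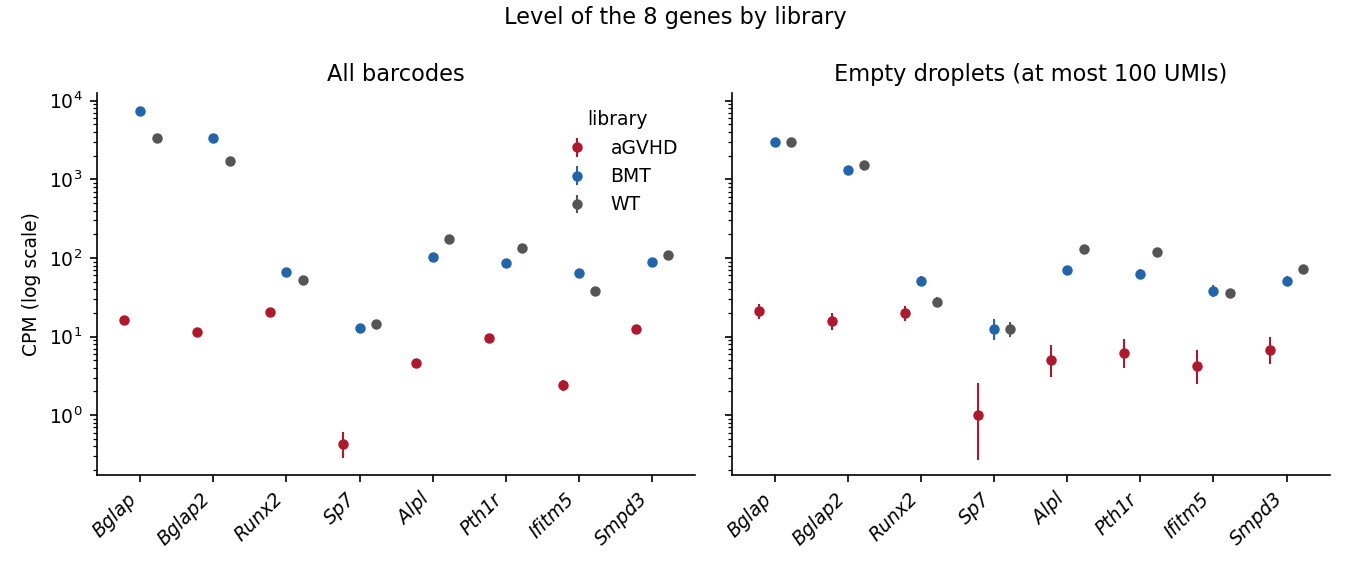
CPM of the 8 genes (log scale) over all barcodes and in empty droplets, with aGVHD, BMT and WT side by side for each gene and bars for the counting interval. The aGVHD point is lowest for all 8 genes in both panels, from 0.430 CPM (Sp7) to 20.8 CPM (Runx2) over all barcodes.

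Empty droplets, barcodes with at most 100 UMIs, carry RNA that was free in the suspension. Bglap stood at 20.9 CPM there in aGVHD, against 2965 CPM in BMT and 3000 CPM in WT. Bglap2 stood at 15.7 CPM in aGVHD, against 1322 CPM in BMT and 1520 CPM in WT. Between BMT and WT these levels differed by at most 1.15-fold for both genes. Without barcodes that were cells of another library, Bglap stood at 7.68 CPM (30 UMIs) in aGVHD, 3067 CPM in BMT and 2997 CPM in WT, and Bglap2 at 7.93 CPM (31 UMIs) in aGVHD, 1366 CPM in BMT and 1521 CPM in WT. Osteocalcin levels of aGVHD empty droplets therefore rest in part on those barcodes. Sp7 had 4 UMIs in aGVHD empty droplets, with 12.4 CPM in BMT and 12.3 CPM in WT, and with 47 UMIs over aGVHD and BMT it was under the minimum for counting. The other 7 were all lower in aGVHD than in BMT, from 2.57-fold for Runx2 to 142-fold for Bglap, against 17.0% of all measured genes lower and 4.47% higher. Without barcodes that were cells of another library, these gaps were 2.62-fold for Runx2 and 399.6-fold for Bglap. In BMT over WT, 0 of 8 passed in either direction, against 17.7% higher and 3.93% lower. For the 3 libraries, called cells held 19.5% of the Bglap UMIs in aGVHD, 95.9% in BMT and 87.0% in WT.

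Cells were gated into 19 classes by marker genes, with none of the 8 genes among the markers. Osteolineage-like cells, gated on 10 markers that include Col1a1, Col1a2, Ibsp and Mmp13, numbered 21 of 5568 cells in aGVHD (0.377%, 0.234 to 0.576), 116 of 3621 in BMT (3.20%, 2.65 to 3.83) and 246 of 7129 in WT (3.45%, 3.04 to 3.90). Their median depth was 6238 UMIs in aGVHD, 31828 in BMT and 13627.5 in WT. The gated cells of the 3 libraries did not hold the same marker levels. Col1a1, the main collagen chain of bone, stood at 19186 CPM in aGVHD, 95741 CPM in BMT and 72442 CPM in WT. Ibsp, bone sialoprotein, stood at 3456 CPM in aGVHD, 8323 CPM in BMT and 8860 CPM in WT, and the collagenase gene Mmp13 stood at 5350 CPM in aGVHD, 314 CPM in BMT and 1116 CPM in WT. Col22a1 had 0 UMIs in aGVHD, against 375 CPM in BMT and 364 CPM in WT. Bglap, Ibsp and Bglap2 led the aGVHD class by fold over the other cells of that library. Another 23 cells in aGVHD, 53 in BMT and 259 in WT passed the osteolineage gate together with another gate and were set apart.

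In osteolineage-like cells, osteocalcin, Ifitm5 and Smpd3 were far lower in aGVHD than in BMT, while Runx2 was higher and Alpl and Pth1r were near their BMT levels. Bglap had 156 UMIs (1082 CPM) in aGVHD, against 310162 (76408 CPM) in BMT and 234464 (60613 CPM) in WT. Bglap2 had 215 UMIs (1492 CPM) in aGVHD, against 137212 (33802 CPM) in BMT and 115437 (29842 CPM) in WT. Together they took 0.257% of all UMIs of the class in aGVHD, 11.02% in BMT and 9.05% in WT. Bglap was 70.6-fold lower in aGVHD than in BMT (60.3 to 83.1) and Bglap2 22.7-fold lower (19.8 to 26.0). Over 18 settings of filters, gate and scaling the Bglap gap ran from 42.6-fold (with Bglap2 and Bglap3 summed) to 230-fold (with a stricter gate). The Bglap2 gap ran from 16.2-fold to 41.7-fold, and was widest with gate scores scaled within each library.

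Ifitm5 had 2 UMIs (13.9 CPM) in aGVHD, against 2589 (638 CPM) in BMT and 2664 (689 CPM) in WT, and was 46.0-fold lower in aGVHD than in BMT (12.7 to 380). Smpd3 had 0 UMIs in 21 aGVHD cells, against 2502 (616 CPM) in BMT and 2435 (629 CPM) in WT. Set at a floor of 3 UMIs for the class, Smpd3 was at least 29.6-fold lower in aGVHD than in BMT. With the mitochondrial limit at 20%, these gaps were 19.7-fold for Ifitm5 and 9.80-fold for Smpd3. Sp7 had 3 UMIs (20.8 CPM) in aGVHD, against 337 (83.0 CPM) in BMT and 470 (122 CPM) in WT, and was 3.99-fold lower (1.35 to 19.4), a value that rests on 3 UMIs.

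Runx2 had 68 UMIs (472 CPM) in aGVHD, against 608 (150 CPM) in BMT and 682 (176 CPM) in WT, and its ratio of aGVHD over BMT was 3.15 (2.41 to 4.05). With gate scores scaled within each library, the Runx2 ratio was 1.98. Alpl had 89 UMIs (618 CPM) in aGVHD, against 2286 (563 CPM) in BMT and 3515 (909 CPM) in WT, a ratio of aGVHD over BMT of 1.10 (0.877 to 1.36). Pth1r had 71 UMIs (493 CPM) in aGVHD, against 1441 (355 CPM) in BMT and 1535 (397 CPM) in WT, a ratio of 1.39 (1.08 to 1.76). The commitment factor, the phosphatase and the receptor were therefore present in the 21 aGVHD cells at levels not below those of BMT. With gate scores scaled within each library, the ratios of Alpl (0.593) and Pth1r (0.785) were below 1.

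Over the 8 genes in osteolineage-like cells, 5 were lower and 1 was higher in aGVHD over BMT, against 4.30% of measured genes lower and 19.0% higher. The members' median log2 ratio was −3.25, against 0.40 over all measured genes. In BMT over WT, 0 of 8 passed in either direction, against 2.28% higher and 4.98% lower, with a median log2 ratio of −0.14 for the members and −0.17 for all measured genes. Alpl was the farthest from 1 in that comparison, 1.61-fold lower in BMT than in WT (1.53 to 1.70).

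**Figure D3:**
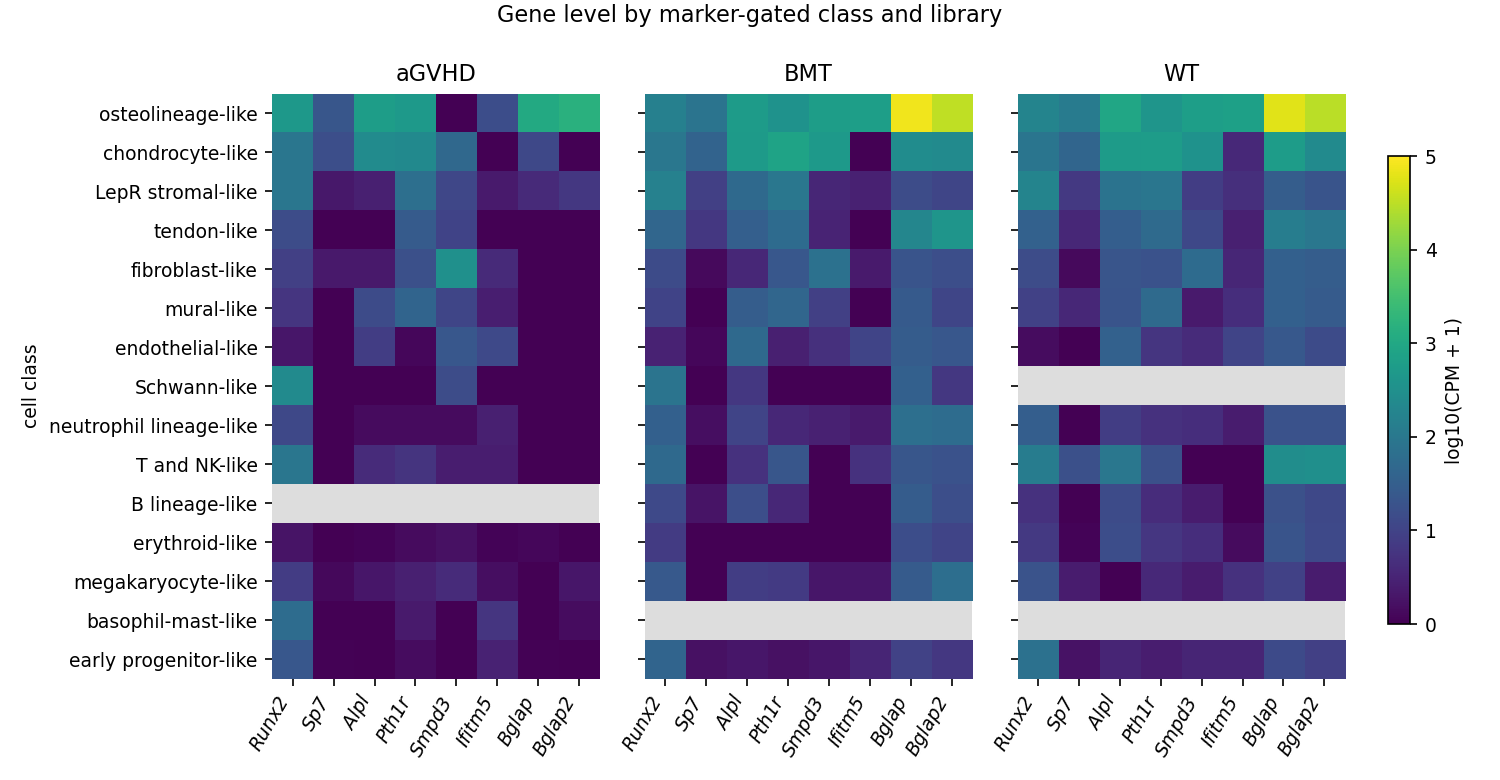
Level of the 8 genes (columns) as log10(CPM + 1) in 15 marker-gated classes (rows) for aGVHD, BMT and WT; grey rows hold fewer than 20 cells. The osteocalcin columns are bright for osteolineage-like cells in BMT (76408 CPM for Bglap) and WT (60613 CPM), and dimmer in aGVHD (1082 CPM).

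Shares of cells with a UMI depend on depth, so cells were also thinned to 1000 UMIs each. Bglap was detected in 61.9% of osteolineage-like cells in aGVHD, 94.8% in BMT and 89.8% in WT, and after thinning in 33.3% in aGVHD, 85.3% in BMT and 78.9% in WT. In endothelial-like cells, which should lack osteocalcin, 0 of 1206 cells had a Bglap UMI in aGVHD, which allows a share of up to 0.249% (3 cells of the total, a limit on cells with a UMI at this depth), against 13.6% in BMT and 8.45% in WT. Endothelial-like cells had median depths of 2741 UMIs in aGVHD, 4570.5 in BMT and 3686 in WT. Runx2 was detected in 85.7% of osteolineage-like cells in aGVHD, 88.8% in BMT and 80.9% in WT, and after thinning in 33.3% in aGVHD, 11.2% in BMT and 21.1% in WT. Its unthinned share in endothelial-like cells was 0.332% in aGVHD, 0.897% in BMT and 0.196% in WT. Alpl was detected in 90.5% of osteolineage-like cells in aGVHD, 89.7% in BMT and 88.2% in WT, and in 2.41% of endothelial-like cells in aGVHD, 14.6% in BMT and 8.45% in WT. All 8 genes were detected together in 0 of 21 aGVHD cells, 63 of 116 BMT cells and 83 of 246 WT cells, without thinning. The aGVHD value follows from Smpd3 alone, which had no UMI in those cells, and these counts also depend on depth.

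Osteocalcin varied widely between cells of the class. Its median share of a cell's UMIs was 0.0749% in aGVHD, 3.54% in BMT and 2.60% in WT, and the highest cell held 1.64% in aGVHD, 50.6% in BMT and 37.6% in WT. The highest cell held 76 osteocalcin UMIs in aGVHD, 24844 in BMT and 13264 in WT. Osteocalcin was absent from 3 of 21 cells in aGVHD, 4 of 116 in BMT and 18 of 246 in WT. Over all called cells, 3 aGVHD cells (0.0539%), 89 BMT cells (2.46%) and 203 WT cells (2.85%) had at least 1% osteocalcin. At 10% or more there were 0 aGVHD cells, which allows a share of up to 0.0539% by the same limit of 3 cells, 34 BMT cells and 68 WT cells.

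**Figure D4:**
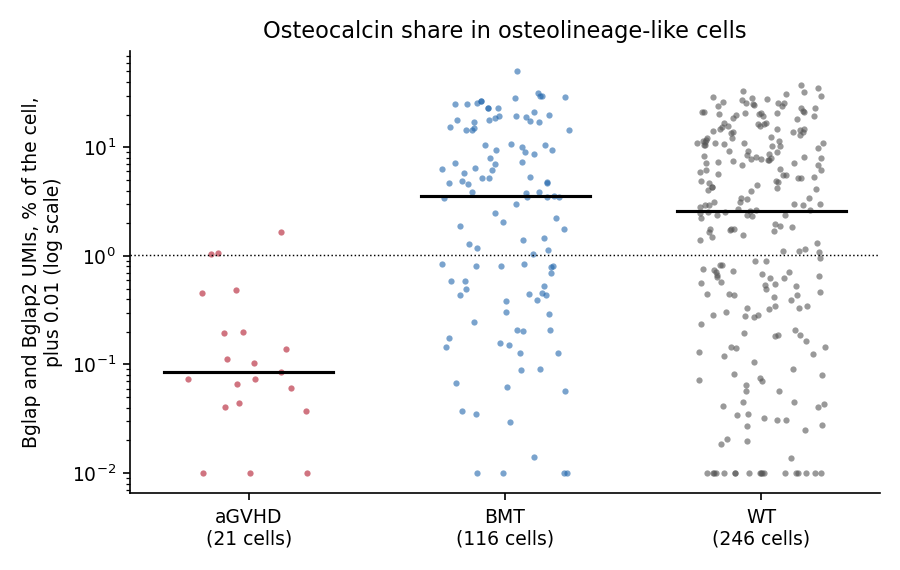
Bglap plus Bglap2 UMIs as a percentage of each osteolineage-like cell's UMIs, with 0.01 added for the log scale; each point is a cell, black bars are medians and the dotted line marks 1%. The aGVHD cells reach 1.64% with a median of 0.0749%, while BMT and WT cells reach 50.6% and 37.6%.

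The other 6 genes were compared between osteolineage-like cells on either side of 1% osteocalcin, as a description of how the genes vary within a library. Ifitm5 stood at 686 CPM in the 74 BMT cells at or above 1% and at 472 CPM in the 42 BMT cells below it, and in WT at 805 CPM in 149 cells and 419 CPM in 97 cells. Smpd3 stood at 673 CPM above and 423 CPM below 1% in BMT, and at 736 CPM above and 383 CPM below it in WT. Both genes were higher on the osteocalcin-rich side in each library. Runx2 went the other way, at 136 CPM above and 197 CPM below 1% in BMT, and 143 CPM above and 252 CPM below it in WT. Alpl was also lower above 1%, at 526 CPM against 691 CPM in BMT and 871 CPM against 996 CPM in WT. Pth1r stood at 352 CPM against 365 CPM in BMT, with overlapping intervals (332 to 374 and 327 to 406), and 367 CPM against 466 CPM in WT. Sp7 stood at 80.5 CPM above and 91.7 CPM below 1% in BMT, and at 121 CPM and 122 CPM in WT. The CPM totals include osteocalcin, which above 1% stood at 98143 CPM (Bglap) and 43268 CPM (Bglap2) in BMT. In WT these were 86244.5 CPM and 42197 CPM. This lowers the CPM of every other gene on the osteocalcin-rich side. The direction of small differences, such as Alpl in WT and Pth1r and Sp7 in BMT, may therefore rest on scaling. Cells below 1% in aGVHD numbered 18 and held Runx2 at 491 CPM, Ifitm5 at 7.92 CPM (1 UMI) and Smpd3 at 0 UMIs. The cells below 1% are not matched between libraries, since the split uses osteocalcin itself and took in 18 of 21 aGVHD cells but 42 of 116 BMT cells. Alpl in these cells stood at 617 CPM in aGVHD, 691 CPM in BMT and 996 CPM in WT, and Pth1r stood at 515 CPM in aGVHD, with 365 CPM in BMT and 466 CPM in WT.

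Bglap2 did not take the same share of osteocalcin UMIs in all cells. In osteolineage-like cells it was 58.0% in aGVHD (52.7 to 63.0), 30.7% in BMT (30.5 to 30.8) and 32.99% in WT (32.8 to 33.1). In cells that passed no gate it was 70.7% in aGVHD, 71.0% in BMT and 68.6% in WT. Over empty droplets, barcodes that were cells of another library included, it was 42.9% in aGVHD, 30.8% in BMT and 33.6% in WT. On the aGVHD barcodes that were osteocalcin-rich BMT cells, 332 of 1094 osteocalcin UMIs were Bglap2. The aGVHD share in osteolineage-like cells lay closer to that of ungated cells than to that of all osteolineage-like cells in BMT or WT. The BMT and WT shares rest mostly on osteocalcin-rich cells. In osteolineage-like cells under 1% osteocalcin, Bglap and Bglap2 UMIs were 1661 and 1203 in BMT, 1622 and 1513 in WT, and 49 and 112 in aGVHD. The 3 aGVHD cells at or above 1% held 107 and 103. How the reads of the pair were split was not tested.

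Outside the osteolineage, osteocalcin CPM was below that of all empty droplets of the same library in every class of at least 20 cells. Set against aGVHD empty droplets without barcodes of other libraries' cells (7.68 CPM), Bglap in aGVHD chondrocyte-like cells was above, at 10.9 CPM from 3 UMIs. The median over these classes was 0 CPM for Bglap in aGVHD (0 UMIs in 9 of 13 classes), 25.8 CPM in BMT (13 classes) and 25.8 CPM in WT (14 classes). The highest class was chondrocyte-like cells in all 3 libraries, with 10.9 CPM in aGVHD, 270 CPM in BMT and 589 CPM in WT. For Bglap2 the highest class was LepR stromal-like cells in aGVHD (5.36 CPM), tendon-like cells in BMT (413 CPM) and T and NK-like cells in WT (307 CPM). The 25 Bglap2 UMIs and the 14 Bglap UMIs of aGVHD LepR stromal-like cells all came from 1 cell. Cells of other classes with at least 1% osteocalcin numbered 0 in aGVHD, 3 in BMT and 14 in WT. How much of the osteocalcin in these classes was free RNA was not tested.

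LepR stromal-like cells, the reticular stroma that gives rise to osteoblasts in adult mice, numbered 377 in aGVHD, 563 in BMT and 959 in WT. Their Alpl had 8 UMIs (1.72 CPM) in aGVHD, against 410 (50.8 CPM) in BMT and 467 (81.0 CPM) in WT, and was 29.6-fold lower in aGVHD than in BMT (14.9 to 69.0). This Alpl gap ran from 26.8-fold to 39.2-fold over 17 settings. Sp7 had 5 UMIs (1.07 CPM) in aGVHD, against 62 (7.68 CPM) in BMT and 33 (5.72 CPM) in WT, and was 7.16-fold lower (2.91 to 22.8). The phosphatase and osterix were thus nearly absent from this stroma in aGVHD, and detected in BMT and WT. In BMT and WT, Alpl in this class stood below its empty-droplet levels of 70.6 CPM and 130 CPM. Bglap in the same cells stood at 0.447% of its empty-droplet level in BMT and at 0.977% in WT. Against the same percentages of the empty-droplet Alpl levels, measured Alpl was 161 times as high in BMT and 63.8 times in WT. This scaling takes free RNA to enter cells in empty-droplet proportions. How much of this Alpl was free RNA was not tested.

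Runx2 and Pth1r held closer in LepR stromal-like cells. Runx2 had 419 UMIs (89.9 CPM) in aGVHD, against 1238 (153 CPM) in BMT and 1039 (180 CPM) in WT, and was 1.71-fold lower in aGVHD than in BMT (1.53 to 1.91), inside the boundary. Pth1r had 301 UMIs (64.6 CPM) in aGVHD, against 761 (94.2 CPM) in BMT and 516 (89.5 CPM) in WT, a gap of 1.46-fold between aGVHD and BMT (1.28 to 1.67). Smpd3 had 49 UMIs (10.5 CPM) in aGVHD, against 20 (2.48 CPM) in BMT and 40 (6.94 CPM) in WT, and its ratio of aGVHD over BMT was 4.24 (2.48 to 7.54), with 28.6% of the aGVHD UMIs in 1 cell. Of 7 members with enough UMIs, 3 were lower (Bglap, Sp7 and Alpl) and 1 was higher (Smpd3) in aGVHD over BMT, against 6.84% of measured genes lower and 2.34% higher. In BMT over WT, 2 of 7 were lower (Bglap and Smpd3) and none was higher, against 2.19% lower and 5.74% higher.

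**Figure D5:**
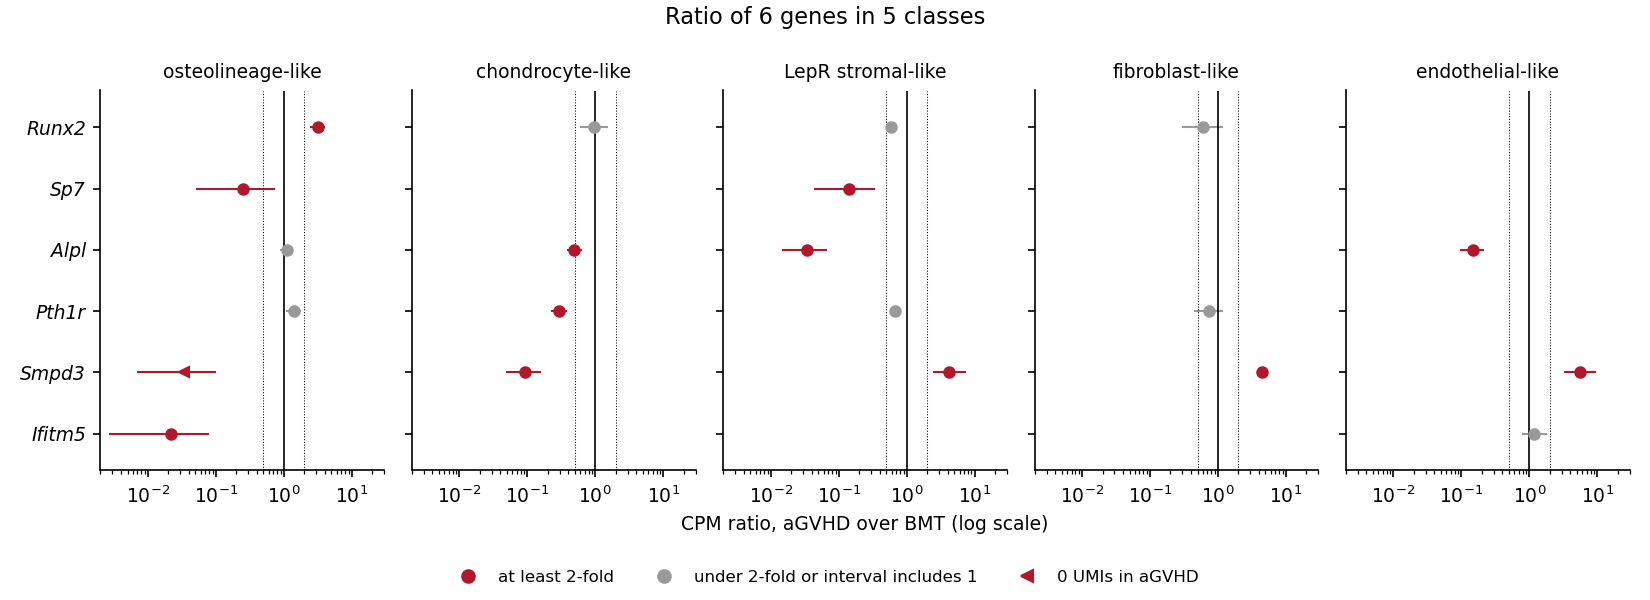
CPM ratio of aGVHD over BMT (log scale) for 6 genes in 5 classes, with bars for the counting interval, dotted lines at 2-fold, and only genes with at least 50 UMIs over both libraries. Runx2 lies right of 2-fold in osteolineage-like cells (3.15), and Smpd3 lies left in osteolineage-like and chondrocyte-like cells and right in the other 3 classes (4.24 to 5.47).

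Chondrocyte-like cells, the cartilage class, numbered 41 in aGVHD, 36 in BMT and 668 in WT. They also held Alpl, Pth1r and Smpd3. Pth1r stood at 236 CPM in aGVHD, 801 CPM in BMT and 592 CPM in WT, and was 3.39-fold lower in aGVHD than in BMT (2.62 to 4.44). Smpd3 stood at 47.3 CPM in aGVHD, 510 CPM in BMT and 347 CPM in WT, and was 10.8-fold lower (6.24 to 20.4). Runx2 stood at 90.9 CPM in aGVHD, 93.4 CPM in BMT and 87.9 CPM in WT, a ratio of aGVHD over BMT of 0.974 (0.595 to 1.54). Of 6 measured members, 5 were lower in aGVHD over BMT (Bglap, Bglap2, Alpl, Pth1r and Smpd3) and none was higher, against 14.1% of measured genes lower and 8.69% higher. Alpl, at 262 CPM in aGVHD, 531 CPM in BMT and 550 CPM in WT, passed narrowly at 2.03-fold lower. A single cell held 63.9% of its aGVHD UMIs and 44.8% of its BMT UMIs, and the gap was 3.098-fold without the top cell of each library and 1.73-fold as a mean over cells. In BMT over WT, 1 of 7 was lower (Bglap, 2.19-fold) and none was higher, against 4.38% lower and 3.33% higher.

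Smpd3 in aGVHD was found mainly in fibroblast-like cells. These numbered 280 in aGVHD, 242 in BMT and 1528 in WT and held 528 Smpd3 UMIs (318 CPM) in aGVHD, against 215 (70.8 CPM) in BMT and 748 (54.2 CPM) in WT. Its ratio of aGVHD over BMT was 4.49 (3.82 to 5.28), and 3.14 to 5.26 over 17 settings. After thinning, it was detected in 13.6% of these cells in aGVHD, 4.96% in BMT and 3.27% in WT. These cells held 68.3% of the Smpd3 UMIs of called cells in aGVHD, against 6.36% in BMT and 9.91% in WT. Of 4 measured members, 1 was higher (Smpd3) and 1 lower (Bglap) in aGVHD over BMT, against 2.94% of measured genes higher and 4.92% lower. The BMT side of the Bglap call was 58 UMIs, at a level below that of BMT empty droplets. Between BMT and WT, Alpl alone of 6 measured members was lower, 7.42-fold, with 8 UMIs (2.64 CPM) in BMT and 270 (19.6 CPM) in WT, against 2.65% lower and 3.45% higher. By the same scaling from Bglap, measured Alpl was 5.79 times the scaled empty-droplet level in BMT and 13.5 times in WT. How much of it was free RNA was not tested.

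Endothelial-like cells, which line the vessels, numbered 1206 in aGVHD, 780 in BMT and 509 in WT. Alpl, which some endothelial cells also transcribe, had 30 UMIs (7.25 CPM) in aGVHD, against 226 (49.3 CPM) in BMT and 79 (35.2 CPM) in WT, and was 6.80-fold lower in aGVHD than in BMT (4.64 to 10.3). Smpd3 had 89 UMIs (21.5 CPM) in aGVHD, against 18 (3.93 CPM) in BMT and 7 (3.12 CPM) in WT, and was 5.47-fold higher (3.27 to 9.66). It was 8.56-fold higher without the top cell of each library, since 1 BMT cell held 38.9% of the BMT UMIs. Ifitm5 had 48 UMIs (11.6 CPM) in aGVHD, 45 (9.82 CPM) in BMT and 22 (9.81 CPM) in WT, so its level differed little between the libraries in this class. Of 5 measured members, 3 were lower (Bglap, Bglap2 and Alpl) and 1 was higher (Smpd3) in aGVHD over BMT, against 4.78% lower and 2.51% higher. The BMT side of the osteocalcin calls was 124 Bglap and 98 Bglap2 UMIs, at levels below those of BMT empty droplets. Alpl here also stood below its empty-droplet levels of 70.6 CPM in BMT and 130 CPM in WT, and above that of 4.98 CPM in aGVHD. How much of these UMIs was free RNA was not tested. Between BMT and WT, none of 4 measured members passed in this class, against 4.95% higher and 4.15% lower. In mural-like cells, which wrap vessels, 1 member was measured and none passed in aGVHD over BMT, against 1.75% higher and 4.83% lower. Bglap2 was 2.59-fold lower there in BMT than in WT, the only call among 4 measured members, against 4.70% lower and 4.02% higher. It rests on 10 UMIs in BMT and 81 in WT, at levels below those of empty droplets. How much of them was free RNA was not tested.

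Runx2 UMIs also lay in haematopoietic and glial classes. In Schwann-like cells it had 36 UMIs (245 CPM) in 37 aGVHD cells, against 15 (82.2 CPM) in 38 BMT cells, and was 2.99-fold higher in aGVHD (1.59 to 5.87). Against this, 6.79% of measured genes were higher and 7.92% lower, and Runx2 was the only measured member. In T and NK-like cells it stood at 91.4 CPM in aGVHD, 50.7 CPM in BMT and 122 CPM in WT, with an interval for aGVHD over BMT of 0.960 to 3.68. In early progenitor-like cells it stood at 21.99 CPM in aGVHD, 40.0 CPM in BMT and 72.4 CPM in WT, in ascending order. In neutrophil lineage-like cells it stood at 10.9 CPM in aGVHD, 32.6 CPM in BMT and 30.8 CPM in WT. In basophil-mast-like cells it had 128 UMIs (57.4 CPM) in 168 aGVHD cells, against 15 (160 CPM) in 9 BMT cells, 2.79-fold lower (1.52 to 4.78), where 6.76% of measured genes were lower and 3.72% higher.

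Across class and library units of at least 20 cells (43 units of 17 classes), the genes most like Bglap2 by Pearson r of log2(CPM + 10) were Plb1 (0.92), Prss35 (0.92), Galnt5 (0.89), Wisp1 (0.88) and Robo2 (0.88). Those most like Alpl were Slc8a3 (0.87), Col11a1 (0.87), Ibsp (0.86), Tmie (0.85) and Bmp8a (0.84), of which Col11a1 and Ibsp are markers of the osteolineage gate. Those most like Runx2 were Fam46a (0.74), Fign (0.72), Tmem167 (0.69), Runx2os1 (0.69) and Igsf3 (0.67). Runx2os1 is an antisense gene at chr17:44735845-44737612, inside Runx2 on the other strand, and whether counting used strand is not given in the sources used here. Among the 8 genes, Bglap and Bglap2 had the highest r, 0.98, with Bglap and Sp7 at 0.90 and Alpl and Pth1r at 0.88. Runx2 was least like the rest, with r of 0.24 to Smpd3 and 0.29 to Ifitm5. Units of one library share its depth and its free RNA, so these values are descriptions.

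Other genes of bone formation were counted from 5 lists in osteolineage-like cells, for aGVHD over BMT, against the 19.0% higher and 4.30% lower given above. Of 15 measured osteoblast regulators, 6 were higher and 1 lower, with a median log2 ratio of 0.54 against 0.40 over all measured genes. Twist1, which restrains Runx2, had 666 CPM in aGVHD, against 121 CPM in BMT, and was 5.52-fold higher, and Dlx5, a homeobox factor of osteoblasts, was 4.67-fold higher. Mef2c, a transcription factor active in osteocytes, was 9.37-fold lower, and Id3 (1.68) and Atf4 (1.14) were inside the boundary. Of 17 measured matrix and mineralisation genes, 5 were higher and 6 lower, with a median of −0.78. Sparc, osteonectin, had 11290 CPM in aGVHD, against 35557 CPM in BMT, and was 3.15-fold lower, and Serpinh1, a collagen chaperone, was 3.46-fold lower. Spp1, osteopontin, was 2.32-fold higher, and Tnn, tenascin-W, was 7.01-fold higher.

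Of 4 measured osteocyte genes, 2 were lower and none was higher, with a median log2 ratio of −1.47. Phex, an endopeptidase gene of osteoblasts and osteocytes, had 0 UMIs in aGVHD, against 1055 in BMT, and was at least 12.5-fold lower at the floor of 3 UMIs, and Irx5 was 2.30-fold lower. Of 20 measured genes of parathyroid hormone, WNT and BMP signalling, 7 were higher and 1 lower, with a median of 0.55. Igfbp5 had 354 CPM in aGVHD, against 148 CPM in BMT, and was 2.39-fold higher, and the ligand gene Bmp2 was 2.997-fold higher. The WNT inhibitor gene Wif1 had 0 UMIs in aGVHD, against 331 in BMT, at least 3.92-fold lower at the floor, and Gnas, which encodes the G protein subunit that Pth1r signals through, had a ratio of 0.696. Of 9 measured close paralogues of the 8 genes, 2 were higher (Ifitm3 at 2.56-fold and Sp1 at 5.63-fold) and none was lower, with a median of 0.80. Bglap3 had 2 UMIs in aGVHD and 185 in BMT in this class, and 4 against 211 over all barcodes, 80.4-fold lower there.

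Over all barcodes, 14 of 18 measured regulators, 15 of 19 matrix genes, 4 of 4 osteocyte genes and 20 of 25 signalling genes were lower and none was higher in aGVHD over BMT, against 26.7% of all measured genes lower and 5.40% higher, with medians of −1.54, −2.16, −3.32 and −1.44 against −0.48 for all measured genes. Of the close paralogues, 3 of 10 were lower and 1 was higher, with a median of −0.48. In BMT over WT in osteolineage-like cells, 4 of 18 regulators, 5 of 19 matrix genes, 0 of 4 osteocyte genes, 7 of 22 signalling genes and 1 of 10 paralogues were lower, and 1 regulator was higher, against 4.98% of measured genes lower and 2.28% higher. In LepR stromal-like cells, 6 of 17 regulators were lower in aGVHD than in BMT and none was higher, against 6.84% of measured genes lower and 2.34% higher, Id1 (4.17-fold), Id3 (2.18-fold) and Snai2 (2.54-fold) among them. Of the other lists there, 1 of 17 matrix genes was lower and 2 higher, 2 of 2 osteocyte genes were lower, 4 of 22 signalling genes were lower and 1 higher, and 0 of 9 paralogues were lower and 1 higher. Spp1 (6.39-fold) and the mineralisation inhibitor gene Mgp (13.7-fold) were higher there.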

How the data were processed

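The authors deposited raw counts (whole UMIs) that were not normalised. Per the file headers they were written by Cell Ranger 3.1.0, and the submitters' processing notes name Cell Ranger, Seurat and the mm10 build. All listed barcodes are included, so cells were called here as stated above, and the mitochondrial limit removed 548 barcodes in aGVHD, 253 in BMT and 544 in WT. No doublet caller was used in the values given, and cells that passed more than 1 gate were set apart.

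A cell's score for a class was the mean of its markers' log2(UMIs per 10000 + 1), scaled over the pooled cells and capped at 3. A class needed at least 3 detected markers, a score of at least 0.5 and a lead of 0.5 over the next class. The gates used 153 markers, of which 152 were in the gene table. UMIs were summed per class and library. Levels carry exact Poisson intervals, ratios exact conditional intervals, and shares exact Clopper-Pearson intervals, all at 95% and all for counting error only. A count of 0 was set to a floor of 3 UMIs per class and library. A share of 0 is given with the limit of 3 cells of the total instead of an interval. The 2-fold calls were also run on simulated counts with known changes. Those counts held counting error only, so the run does not cover variation between cells, mice or libraries.

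The 8 genes, the gates and the 5 lists were chosen with earlier results of these data known. The genes named are all 8 members, the 4 genes of each list with the most UMIs in the class, list genes past 2-fold, and the 5 genes most like Bglap2, Runx2 and Alpl. Some of these list genes are counted only. Alternatives changed the limits on UMIs and mitochondrial share, the gates, the scaling and the single highest cell, or removed likely doublets. Python 3.11.15, numpy 2.4.6, scipy 1.17.1, pandas 2.3.3, matplotlib 3.10.9 and scanpy 1.11.5 (for Scrublet) were used. No test between groups was possible with 1 library per group.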

Additional observations from a re-analysis of the deposited data

Results flagged for a closer look

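Runx2 and Smpd3 differed between aGVHD and BMT in opposite directions in different classes. These differences between classes were not tested, since each group is 1 library. The Runx2 ratio of aGVHD over BMT was 3.15 in osteolineage-like cells and 2.99 in Schwann-like cells, and 0.358 in basophil-mast-like cells, where BMT had 9 cells. The Smpd3 ratio was 4.49 in fibroblast-like cells, 5.47 in endothelial-like cells and 4.24 in LepR stromal-like cells. It was 0.0927 in chondrocyte-like cells, and 0.0338 in osteolineage-like cells with the aGVHD count of 0 set to the floor.

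Osteocalcin UMIs also appeared in aGVHD outside its cells, on barcodes that were osteocalcin-rich cells of the BMT library. They numbered 762 for Bglap and 332 for Bglap2, against 0 among the 197 aGVHD UMIs on barcodes of osteocalcin-rich WT cells. For the other genes on the same 89 barcodes, aGVHD held 16 of its 162 Ifitm5 UMIs (9.88%), 11 of its 308 Alpl UMIs (3.57%) and 1 of its 1403 Runx2 UMIs. In the other direction, BMT held 28 Bglap UMIs on 5530 barcodes that were cells of aGVHD, where aGVHD itself had 215. Over all genes, BMT held 137512 UMIs on those barcodes, 0.311% of its library. On 3602 barcodes that were cells of BMT, aGVHD held 125069 UMIs, 0.185% of its library, so the overlap ran both ways. The cause was not tested.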

How the results depend on the processing

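No paired analysis was possible because each group has 1 library, and leaving out a replicate was not possible for the same reason. Ratios were recomputed over all barcodes, in osteolineage-like cells, and for chosen genes in LepR stromal-like, fibroblast-like, endothelial-like and chondrocyte-like cells. Of 247 values recomputed for the 22 such ratios at least 2-fold, 242 stayed at least 2-fold, 5 came under it and 0 changed direction. Not recomputed were Smpd3 and Sp7 in LepR stromal-like cells and Runx2 in Schwann-like and basophil-mast-like cells. Nor was Alpl in fibroblast-like cells (BMT over WT). Among the cell classes, Bglap and Bglap2 ratios were recomputed only in osteolineage-like cells. Runx2 in osteolineage-like cells (aGVHD over BMT) was 1.98 with gate scores scaled within each library, so the number of genes higher there was 0. Over all barcodes in BMT over WT, 2 genes were higher in called cells alone and 0 with ratios centred on the median of all genes. Alpl in chondrocyte-like cells ranged from 1.73-fold to 3.098-fold lower in aGVHD. The osteolineage-like share was 0.180% in aGVHD and 3.03% in WT with a stricter gate, 0.233% in aGVHD without Col1a1 and Col1a2 in the gate, and 3.91% in WT with a mitochondrial limit of 20%. Removing the highest Scrublet scores, 0.8% per 1000 cells, took 4 of 21 aGVHD osteolineage-like cells, and the Bglap gap was then 139-fold. The cause of these shifts was not tested. Scaling within each library, centring on the median, leaving out barcodes of other libraries (over all barcodes, cells and empty droplets), and CPM without osteocalcin were added after the data were seen. The aGVHD osteolineage-like values rest on 21 cells and 144113 UMIs, so the floor of 3 UMIs there stands for 20.8 CPM.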

Other observations

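Cells that passed more than 1 gate numbered 289 in aGVHD, 185 in BMT and 840 in WT, and they mix classes, so their levels are values only. Alpl, the alkaline phosphatase gene, had 30 UMIs (7.69 CPM) there in aGVHD, against 682 (225 CPM) in BMT and 2908 (264 CPM) in WT. Sp7, osterix, had 4 UMIs (1.03 CPM) in aGVHD, against 51 (16.8 CPM) in BMT and 125 (11.3 CPM) in WT. Runx2 stood at 31.5 CPM in aGVHD, against 85.8 CPM in BMT and 67.0 CPM in WT, unlike in osteolineage-like cells, where aGVHD had the highest level. Which classes made up these cells differed between the libraries. Osteolineage was the first or second class by score in 23 of 289 in aGVHD, 53 of 185 in BMT and 259 of 840 in WT.

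In tendon-like cells, Runx2 had 3 UMIs (13.4 CPM) in 58 aGVHD cells, against 40 (43.4 CPM) in 89 BMT cells and 125 (35.3 CPM) in 346 WT cells. Alpl had 0 UMIs in aGVHD, against 29 (31.5 CPM) in BMT and 108 (30.5 CPM) in WT, and with so few aGVHD UMIs no 2-fold gap to BMT was resolved for Alpl at the floor. Pth1r in mural-like cells stood at 39.4 CPM in aGVHD, 43.0 CPM in BMT and 52.4 CPM in WT, with an interval of 0.532 to 1.54 for aGVHD over BMT.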
